A study of Arabidopsis thaliana with 12 samples.

Results

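Arabidopsis genes whose transcripts were higher in every pete2 sample than in any wild-type (WT) sample are described here. A gene was taken if its probe names exactly 1 gene and the lowest of 6 pete2 intensities exceeded the highest of 6 WT intensities. The intensities were compared after quantile normalization, which gives all samples the same distribution of values. Values deposited as 0 were then set back to 0, so the share at 0 still differs between samples. Of the 665 probes with 1 gene that were above 0 in at least 1 sample, 19 met this rule, which is 2.86%. The same rule turned round, with every pete2 sample below every WT sample, took 6.02%. Set aside by name were 4 of the 19 (PSAN, PSBY, AT4G13550 and AT4G32060), which left 15 genes. The 15 were chosen on the pete2 and WT values themselves, so the differences below describe these samples, and no test of them is given as support.

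Plastocyanin is the small copper protein that carries electrons from the cytochrome b6f complex to photosystem I in the thylakoid lumen. Arabidopsis makes it from the genes PETE1 and PETE2, and the pete2 mutant lacks the PETE2 isoform while PETE1 remains. Photosynthetic electron flow sets the redox state of the plastid, and signals from the plastid are known to alter the transcription of nuclear genes.

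All plants were of ecotype Columbia 0 and grew on soil, and total RNA was measured on an array of 3439 probes in 6 WT and 6 pete2 samples. In the sample titles, the word soil stands for pete2 only. The labels name no tissue, age or pete2 allele, and do not say whether the numbered samples came from separate plants. If samples 1 and 2, 3 and 4, and 5 and 6 are repeats of the same material, which the labels leave unsaid, each group holds 3 independent samples and the n = 6 given below overstates them. Neither plastocyanin gene is listed for a probe, so the genotype was not checked, and 0 of 18 markers of leaf, root, flower, guard cell, phloem, senescence and dividing cells had a probe of their own. In bulk RNA, fewer cells of a type and less RNA per cell cannot be told apart. The median deposited intensity over all probes was 0.129 to 0.193 in WT and 0.182 and 0.183 in pete2 samples 2 and 1. In pete2 samples 3 to 6 it was lower, at 0.0543 to 0.0921. The sum of deposited intensities over all probes was 2795 to 3358 in WT and 2857 to 3180 in pete2. The lower medians were therefore not a uniform drop over the array. The share of probes listed at exactly 0 was 15.7% to 17.8% in WT and 17.1% to 30.7% in pete2. None of the 15 genes had a 0 in any sample or lay at the upper limit of the scale.

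The probes of the 15 genes gave median WT intensities (normalized, in the array's arbitrary units) from 0.0447 for AT5G63490 to 1.66 for AT1G32730, with a median of 0.157, against 0.130 over all 665 probes. Signals of different probes do not rank the transcripts by abundance, so they are compared between samples only. The log2 difference of group means, pete2 minus WT, ran from 0.48 for AT1G79480 to 2.31 for AT5G63490. Its median over the 15 genes was 1.39, against -0.10 over the 665 probes, a gap that follows from how the genes were chosen. The genes lie on all 5 chromosomes, and no 2 of them are neighbours: the closest, AT4G19900 and TPP2, are 103 protein-coding genes apart in the RefSeq annotation of TAIR10.1. Their products have varied roles, a mix that leaves out the 4 genes set aside by name. The roles of loci without a name in that annotation are given below as background knowledge of Arabidopsis gene families. Sequences of the probes were not used here.

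**Figure D1:**
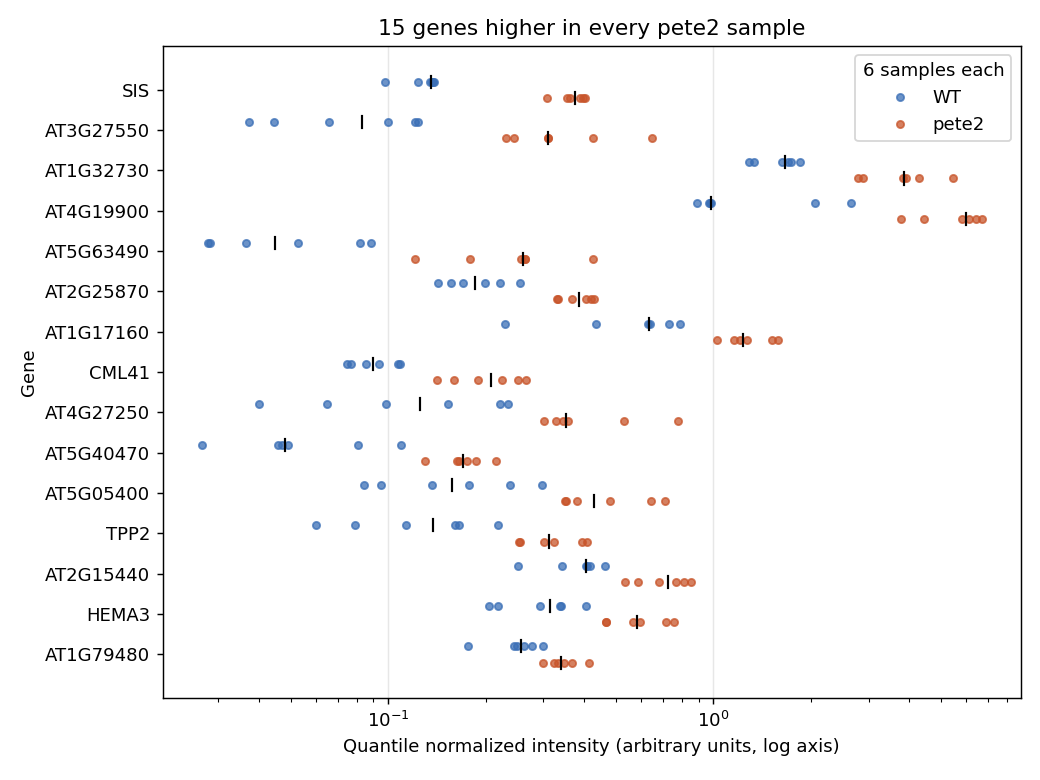
Quantile normalized intensity (log axis) of the 15 genes in 6 WT samples (blue) and 6 pete2 samples (orange), with a bar at each group's median, ordered by the ratio of the lowest pete2 to the highest WT value. The gap is widest for SIS, at a ratio of 2.23, and nearly closed for AT1G79480, at 1.01.

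SIS (AT5G02020, named Salt Induced Serine rich in the annotation) had the widest gap of the 15 genes and, after normalization, tight groups. Its lowest, median and highest normalized intensities were 0.0977, 0.135 and 0.138 in WT and 0.307, 0.375 and 0.403 in pete2. The lowest pete2 value, in sample 6, was 2.23 times the highest WT value, and the log2 difference was 1.53, with SDs of 0.19 in WT and 0.15 in pete2 (log2, n = 6 each). CML41 is a calmodulin-like calcium sensor known for its part in callose deposition at plasmodesmata, the channels between plant cells, during immune responses. It had 0.0746, 0.0897 and 0.109 in WT against 0.141, 0.206 and 0.265 in pete2, again as lowest, median and highest, a 2.22-fold difference (all folds compare the groups' mean log2 values). AT5G05400 belongs to the nucleotide-binding, leucine-rich repeat class of disease resistance proteins, which sense pathogen effectors. Its WT values were 0.0840, 0.157 and 0.298 and its pete2 values 0.349, 0.429 and 0.710, a 3.01-fold difference. WT samples 5 and 6 were the highest of their group for AT5G05400, and pete2 samples 1 and 2 the highest of theirs.

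AT5G63490 encodes a protein with CBS domains, which bind adenosine nucleotides in many proteins, joined to a PB1 domain. Its log2 difference was 2.31, a 4.95-fold higher level in pete2, the largest of the 15 genes with quantile normalization and cyclic loess, while AT4G19900 exceeded it with median scaling (2.28 against 1.95) and as deposited (1.83 against 1.50). The values were 0.0279, 0.0447 and 0.0886 in WT and 0.121, 0.259 and 0.425 in pete2. Both groups spread widely, with log2 SDs of 0.74 and 0.61 (n = 6 each), and pete2 sample 4 came closest to WT.

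Among the genes of RNA handling was AT3G27550, a protein with a CRM domain, an RNA-binding fold that plants use widely in organelle intron splicing. Its lowest, median and highest normalized intensities were 0.0373, 0.0828 and 0.124 in WT and 0.230, 0.310 and 0.647 in pete2. It had the second widest gap of the 15 genes, a ratio of 1.86, and was 4.58-fold higher in pete2. WT samples 5 and 6 were the lowest WT values and pete2 samples 1 and 2 the highest of all, so the spread within each group was large (log2 SD 0.75 in WT and 0.56 in pete2).

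AT2G25870 encodes the plant relative of bacterial YbeY, an endoribonuclease of ribosomal RNA maturation that works in the chloroplast in Arabidopsis. The probe that met the rule (2853) had 0.142, 0.184 and 0.254 in WT and 0.331, 0.386 and 0.428 in pete2, a 2.03-fold difference. AT2G25870 is the only gene named alone by more than 1 probe, and the other probe (2727) gave another picture. It had 0.206, 0.246 and 0.355 in WT and 0.0386, 0.150 and 0.661 in pete2. There pete2 sample 1 was the highest of the 12, and the other pete2 samples, at 0.0386 to 0.177, lay below every WT sample. The probes of this gene therefore disagree in direction in all pete2 samples but sample 1, and which of them follows the transcript was not tested.

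A further probe for SIS (3595) lists other genes besides it (AT5G59080 and AT3G46880), so its level cannot be given to SIS alone. Its values overlapped, at 0.120, 0.173 and 0.201 in WT and 0.0985, 0.179 and 0.273 in pete2. For the other 13 genes only the probe that met the rule lists the gene.

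**Figure D2:**
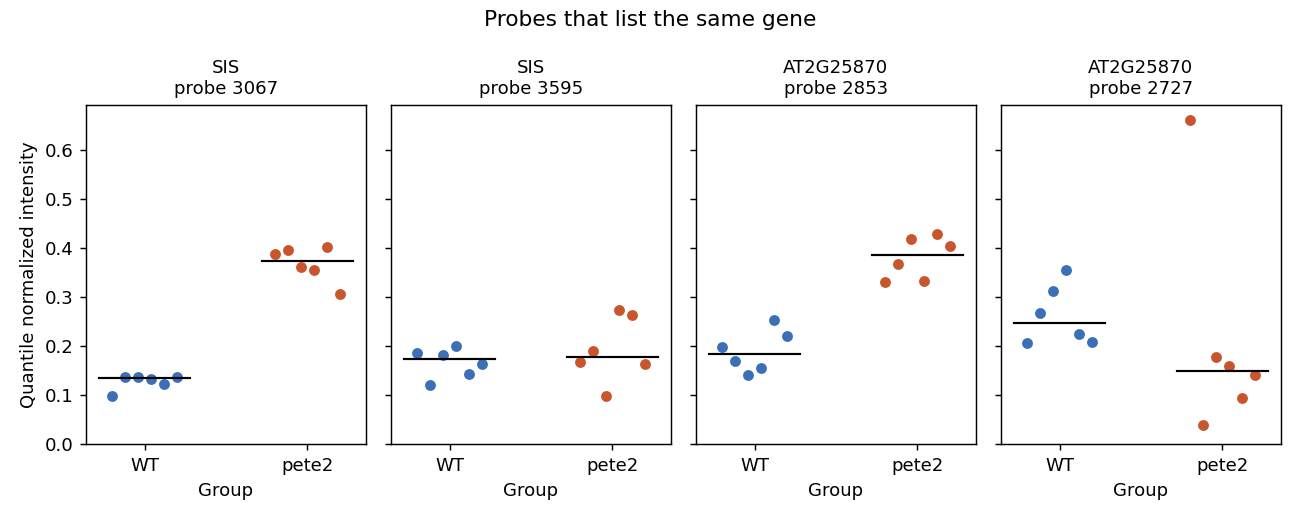
Quantile normalized intensity in WT and pete2 (6 samples each, in order of sample number, bar at the median) for the probes that list SIS or AT2G25870. Probes 3067 and 2853 met the rule, while probe 3595, which lists SIS among other genes, and probe 2727, which lists AT2G25870 alone, overlap between the groups.

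Metabolic enzymes were also present. HEMA3 is an isoform of glutamyl-tRNA reductase, the enzyme at the start of tetrapyrrole synthesis, which leads to chlorophyll and heme. Its values were 0.204, 0.315 and 0.406 in WT and 0.466, 0.580 and 0.756 in pete2, a 2.01-fold difference. After normalization, pete2 samples 5 and 6 were the highest of their group, and in WT the same numbers were lowest. As deposited, pete2 samples 1 and 2 were highest (0.536 and 0.532), above samples 5 and 6 (0.513 and 0.496). AT1G17160 is the plastid ribokinase, which phosphorylates ribose for reuse. Its WT samples lay between 0.228 and 0.789 around a median of 0.633, and its pete2 samples between 1.02 and 1.58 around 1.24, a 2.39-fold difference. AT4G27250 is a reductase of the NAD(P)-binding Rossmann-fold family. It was 3.69-fold higher in pete2, with 0.0399, 0.126 and 0.234 in WT and 0.302, 0.351 and 0.780 in pete2, and its WT samples spread more than those of any other of the 15 genes (log2 SD 1.02).

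Of the genes tied to the cell wall and to sugar chains, AT4G19900 encodes a glycosyltransferase family protein. Its WT samples 1, 2, 5 and 6 lay between 0.891 and 0.984, WT samples 3 and 4 at 2.05 and 2.65, and the pete2 samples between 3.78 and 6.68 around a median of 5.96. It was 4.22-fold higher in pete2, and even the high WT samples stayed below the lowest pete2 value by a factor of 1.42. AT2G15440 belongs to the DUF579 family, whose studied members act in xylan and arabinogalactan synthesis. Its WT samples lay between 0.251 and 0.463 and its pete2 samples between 0.533 and 0.854, a 1.86-fold difference. After normalization, samples 1 and 2 were the lowest of both groups, while as deposited pete2 samples 5 and 6 were lowest (0.456 and 0.543). AT1G79480, of the X8 domain family that includes callose-binding proteins of plasmodesmata, was the closest case, with 0.298 as the highest WT and 0.300 as the lowest pete2 value and a 1.40-fold difference.

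TPP2, tripeptidyl peptidase II, is a very large serine peptidase that trims peptides in the cytosol. It had 0.0600, 0.137 and 0.218 in WT and 0.252, 0.312 and 0.409 in pete2, a 2.62-fold difference. The last genes, AT1G32730 and AT5G40470, are given no role here. AT1G32730 had 1.28, 1.66 and 1.84 in WT, against 2.79, 3.86 and 5.45 in pete2, and samples 1 and 2 were the lowest of the pete2 group. AT5G40470 was dim, at 0.0267, 0.0479 and 0.109 in WT and 0.130, 0.170 and 0.214 in pete2, a 3.15-fold difference.

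The edge of the rule was narrow. Just inside it lay AT1G79480, HEMA3, AT2G15440, TPP2 and AT5G05400, with ratios of lowest pete2 to highest WT value of 1.01, 1.15, 1.15, 1.16 and 1.17. Just outside lay AT1G51550 (0.991), the copper chaperone gene CCS (0.980), PRA1.B6 (0.971), RAP74 (0.966) and AT1G06510 (0.964). The log2 difference of AT1G06510, 1.92, was larger than that of 12 of the 15 genes, so the rule did not take the genes in order of difference.

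**Figure D3:**
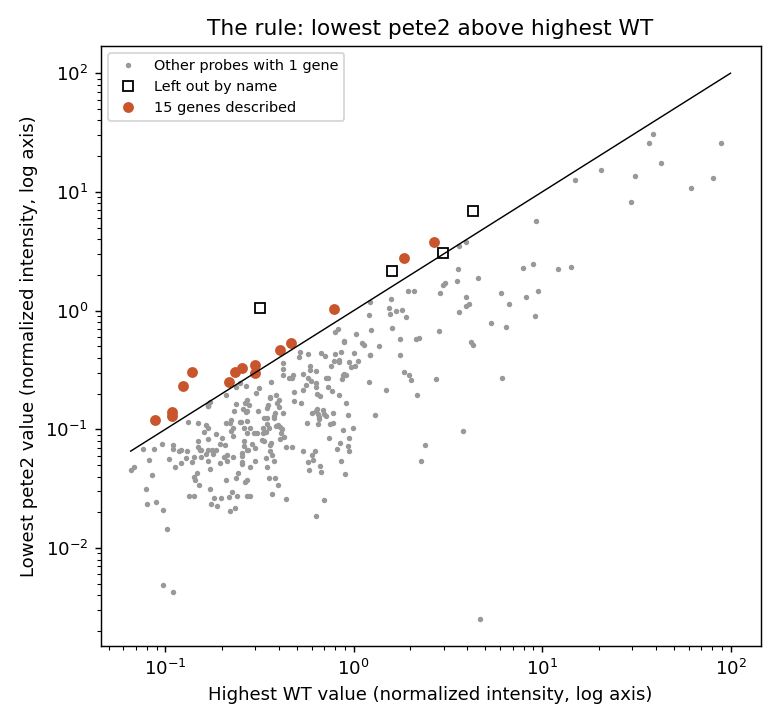
Lowest pete2 against highest WT normalized intensity (log axes) for probes that name 1 gene and have both values above 0. The 15 genes (orange) and the 4 left out by name (open squares) lie above the diagonal of equal values, and 5 further probes lie just under it at ratios of 0.964 to 0.991.

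In the normalized values, samples of neighbouring number often lay together at an end of their group, for the 15 genes most often WT samples 5 and 6. For 9 of the 15 genes WT samples 5 and 6 were either the lowest or the highest WT values: they were lowest for AT3G27550, AT1G32730, AT1G17160, TPP2 and HEMA3, and highest for AT2G25870, AT4G27250, AT5G40470 and AT5G05400. Over the 335 probes with 1 gene and no 0, samples 5 and 6 were the lowest WT values for 21.8% and the highest for 34.9%, and 9 of 15 lies near the sum of these shares. WT samples 1 and 2 were the lowest for 1 of the 15 genes and the highest for 0, beside 15.8% and 12.2% of those probes. Taken by consecutive numbers, samples 1 and 2, 3 and 4, and 5 and 6 of pete2 against those of WT gave median log2 differences over the 15 genes of 1.17, 1.39 and 1.50. The difference was above 0 in all 3 sets for each gene, as the rule requires. It was largest in samples 5 and 6 for 7 genes, in samples 1 and 2 for 5 and in samples 3 and 4 for 3. It differed least between the sets for AT2G15440 (0.74 to 1.01) and SIS (1.41 to 1.76) and most for AT5G40470 (0.65 to 2.45) and TPP2 (0.88 to 2.40). The labels do not say that equal numbers pair WT with pete2 samples, so the differences by set and their ranges depend on that matching.

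**Figure D4:**
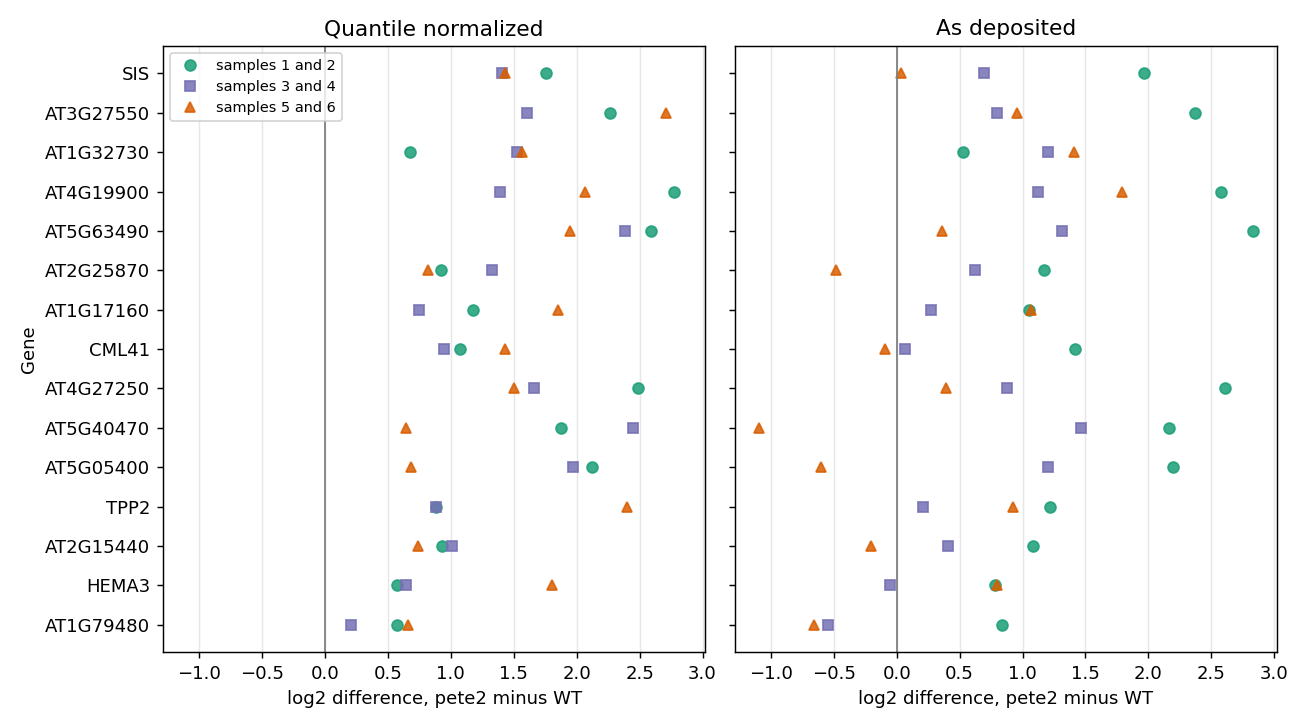
log2 difference, pete2 minus WT, of the 15 genes in samples 1 and 2 (circles), 3 and 4 (squares) and 5 and 6 (triangles), after quantile normalization (left) and as deposited (right). All normalized differences are above 0, while as deposited 13 genes are above 0 in samples 3 and 4 and 9 in samples 5 and 6.

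How firmly the groups stood apart depended on scaling between samples. On the intensities as deposited, the groups stayed apart for AT1G32730 (lowest pete2 over highest WT 1.18) and AT4G19900 (1.17), whose probes gave the strongest signals of the 15, and overlapped for the other 13. Over the 665 probes, 0.752% met the rule as deposited, 2.26% with each sample scaled to its median and 3.01% with cyclic loess, scalings under which 12 and 14 of the 15 genes met it. The median log2 difference as deposited was 1.41 in samples 1 and 2, 0.69 in samples 3 and 4 and 0.36 in samples 5 and 6, and these are also the samples whose deposited median over all probes fell in that order in pete2. How far that fall in the median enters the result was not tested. In pete2 samples 1 and 2, whose deposited medians lie near the top of the WT range, 14 of the 15 genes were above all 6 WT samples as deposited, beside 14.6% of the 665 probes, and AT2G15440 was not (0.600 and 0.624 against a highest WT value of 0.617). The genes were chosen on these same samples, so nothing is read from that count. The fold difference moved by over 1.5 times as deposited for 10 of the 15 genes, all but AT1G32730, AT4G19900, AT1G17160, AT2G15440 and HEMA3. It was then 2.83 for AT5G63490, 2.59 for AT3G27550, 2.45 for AT4G27250 and 1.35 for AT2G25870, and 3.55 for AT4G19900, the largest of the 15 on that scale. As deposited, SIS had 0.458 and 0.454 in pete2 samples 1 and 2 and 0.161 to 0.262 in samples 3 to 6, against 0.0963 to 0.197 in WT. AT1G79480 turned round as deposited, with a log2 difference of -0.12.

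**Figure D5:**
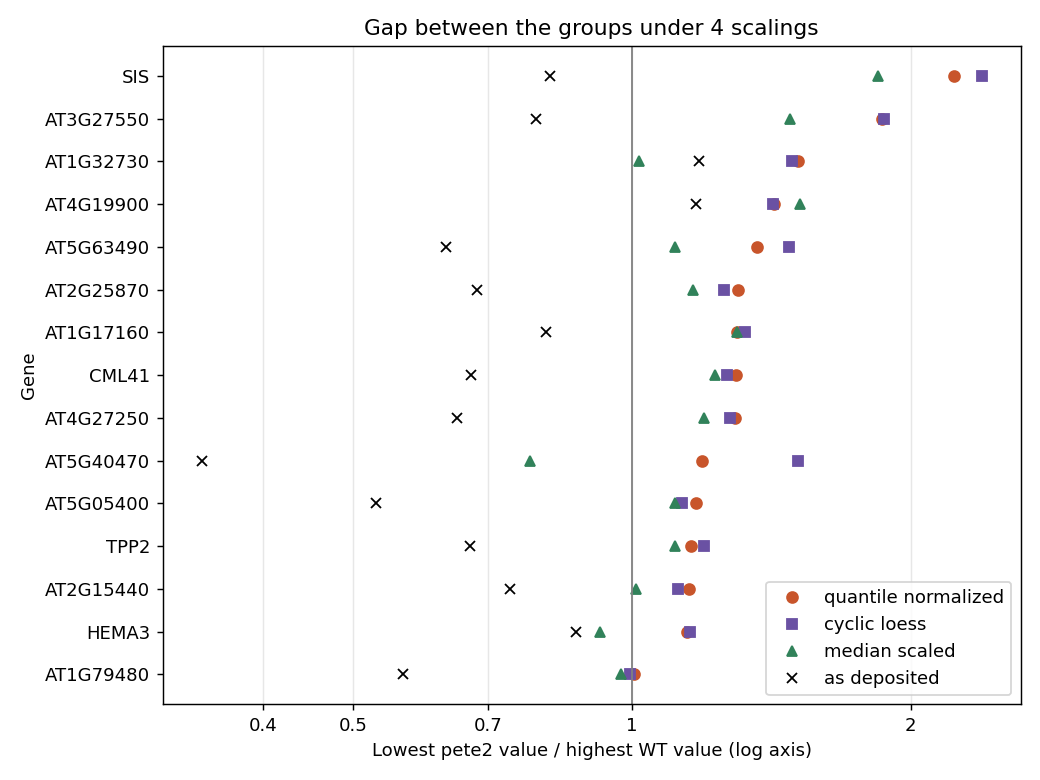
Ratio of the lowest pete2 to the highest WT value (log axis, line at 1) of the 15 genes under 4 scalings of the samples: quantile normalized, cyclic loess, median scaled and as deposited. As deposited only AT1G32730 and AT4G19900 lie above 1, while 12 genes do with median scaling and 14 with cyclic loess.

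A fit over the whole array, limma with Benjamini-Hochberg adjustment over 3321 probes, called 14 of the 15 genes higher in pete2 at an adjusted p under 0.05, all but AT1G79480, beside 4.91% of all probes and 4.81% of those with 1 gene. With samples of consecutive numbers treated as a random block, because neighbours in number lay together, it called 9 of them, beside 1.9% of all probes. With those samples averaged, which leaves 3 values per group, limma called 0, beside 0.0903% of all probes. The rule and the fit used the same contrast, so these counts describe the genes and do not support them.

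Probes that cannot be given to a single gene also met the rule. Of all 3321 probes above 0 somewhere, 110 were higher in every pete2 sample, which is 3.31%, and 166 were lower in every pete2 sample, which is 5%. Of the 110, 32 list several genes (3.78% of such probes) and 59 have no entry in the platform's annotation (3.26%).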

How the data were processed

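The data are 1 linear intensity per probe and sample, as deposited by the authors. The sources used here do not name the scanner, background correction or scaling. Columns were assigned to samples by accession and to groups by title. Of 3439 probes, 692 name a single gene in the platform's table, 870 several, and 1877 are not listed. RefSeq (TAIR10.1) was used for symbols and gene order only, and 690 of the 692 matched. It holds no product text, so the planned grouping by keywords was not possible and roles are background knowledge.

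Intensities were quantile normalized (limma 3.58.1, R 4.3.3) and values deposited as 0 set back to 0. For log2, values under the 1st percentile of positive values (0.00560) were raised to it. The 118 probes at 0 throughout were left out of limma (lmFit, eBayes with trend). A trial of limma on simulated data drew every sample independently. In the real data, consecutive samples correlated at 0.52 in the random block fit, so the trial does not show that the calls hold here. All 15 genes are named. The genes, lists and tests were chosen with earlier results of these data known. The number of arrays limits the precision, and since the labels name no separate plants, p-values may measure technical spread only. The alternatives were other scalings, floors and filters, averaged or blocked samples and samples left out.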

Additional observations from a re-analysis of the deposited data

Results flagged for a closer look

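In WT, the SIS value of sample 1 stood apart from its group. Its normalized intensity was 0.0977 and the nearest other WT sample had 0.123, a gap of 0.674 of the group's range on the log2 scale, above Dixon's critical value for 6 samples. About 1 in 20 groups passes that value by chance, and 1 of the 30 examined (15 genes in WT and in pete2) did. The low value lay away from pete2, so it did not bear on whether SIS met the rule.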

How the results depend on the processing

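Of the 15 genes, 12 met the rule with median scaling (not AT5G40470, HEMA3 and AT1G79480), 14 with cyclic loess (not AT1G79480) and 2 as deposited. All 15 met it in each of the 12 repeats without 1 sample, which the choice of genes largely fixes, and limma then called 14 in each. The median log2 difference was 1.22 to 1.49 in these repeats, 1.11 without samples 5 and 6 of both groups and 0.84 as deposited, where AT1G79480 reversed to -0.12. Limma called 2 of the genes as deposited. With consecutive samples as a random block it called 9, beside 1.9% of all probes, and with them averaged 0, beside 0.0903%. With the replicate number as a replicate block it called 11. Shares of all probes are not given here for the fits as deposited, with the replicate block or without 1 sample, so nothing is read from those counts. The deviations of samples of equal number in WT and pete2 correlated at 0.02 to 0.28. For 4 of the 6 numbers the correlation was over 0.1 and the own number was the best match. For numbers 1 and 2 neither held. Whether equal numbers pair the samples is not settled by these values, and the main fit did not use the numbers.

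Over all probes with 1 gene, 19 met the rule, and 20 to 25 without 1 sample. The count was 5 as deposited and 54 with consecutive samples averaged. It was 67 without samples 5 and 6 and 97 for deposited pete2 samples 1 and 2 against all WT. With fewer values the rule is easier to meet. The settings with 67 and 97 also leave out pete2 samples 5 and 6, whose deposited medians were the lowest, and the part of each was not tested. Over all probes the counts were 110, then 118 to 146 without 1 sample, 33, 306, 314 and 462 in the same order. The comparison of deposited pete2 samples 1 and 2 was chosen after seeing the data. With so many probes near 0, low intensities limit what can be read for dim genes such as AT5G63490.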
